A study of Mus musculus with 36 samples.

Results

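The control line of this study is the B3 mouse pre-B cell line carrying an MSCV retroviral vector with ERt2 (the tamoxifen-responsive part of the estrogen receptor), an internal ribosomal entry site and GFP, but without Ikaros. All 18 control samples of the 36 in the table were taken, with 3 at each of 0, 2, 6, 12, 18 and 24 h. The dose of 4-hydroxy-tamoxifen (4-OHT) in the labels is 0.5 uM for every sample, but per the methods of the study the 0 h cells received none. The other 18 samples come from the same cell line with the same vector encoding HA-Ikaros fused to ERt2, at the same dose and times, and serve here only as the contrast for the course. Infected cells were sorted on GFP, so both lines are populations selected for the vector and not clones. The 0 h samples come from culture batches 4, 5 and 6 and the later ones from batches 1, 2 and 3, so a change from 0 h and a change of batch cannot be told apart.

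A miRNA is cut from a hairpin that lies in a longer transcript, and either arm of the hairpin, 5p or 3p, can be loaded into an Argonaute protein. Bases 2 to 8 of the loaded strand, the seed, pair with messenger RNAs, so miRNAs with one seed form a family with overlapping targets. In lymphocytes, miR-181a is known as a regulator of early B and T cell development, miR-142 as a miRNA of all blood cells, and miR-150 as a miRNA of mature lymphocytes that is low in their progenitors.

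The mature sequences that carry most of the signal are shown first, from RefSeq (GRCm38.p6), with the seed in capitals. Most are the leading members of the highest families, beside relatives that share the seed and differ elsewhere. miR-19a-3p and miR-19b-3p, shown last, are not of these families and are given for their spread, described below.
miR-191-5p: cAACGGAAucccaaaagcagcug
miR-181a-5p: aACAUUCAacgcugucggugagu
miR-181b-5p: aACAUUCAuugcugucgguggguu
miR-181a-1-3p: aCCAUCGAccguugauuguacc
miR-16-5p: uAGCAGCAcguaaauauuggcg
miR-15b-5p: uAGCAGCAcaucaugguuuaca
miR-10a-5p: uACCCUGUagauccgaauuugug
let-7f-5p: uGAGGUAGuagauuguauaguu
let-7i-5p: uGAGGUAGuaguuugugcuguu
miR-25-3p: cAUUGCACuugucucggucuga
miR-21a-5p: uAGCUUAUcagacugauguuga
miR-93-5p: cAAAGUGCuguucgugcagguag
miR-20a-5p: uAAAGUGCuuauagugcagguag
miR-19a-3p: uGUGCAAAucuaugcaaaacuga
miR-19b-3p: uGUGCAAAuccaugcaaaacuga

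The deposited values are normalised log2 levels of 469 miRNAs, and the shares below are each value's antilog over the sum of antilogs of its library. These sums ranged from 1219970 to 1788570 in the control libraries. The shares describe the normalised table, since the table holds no read counts. The library of replicate 2 at 12 h stood apart with the highest sum and with the lowest median correlation to the other control libraries (r = 0.980 across miRNAs, against 0.986 to 0.994 in the rest). Without it the highest sum was 1542550, and the tests that turn on it are given with and without it.

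The control cells were dominated by 2 miRNAs. miR-191-5p held 29.0% ± 2.57 of the antilog total (SD, n = 18), with 23.2% in the lowest, 29.3% in the median and 34.5% in the highest library, which was replicate 2 at 12 h. The next highest was 31.4%. miR-181a-5p held 23.5% ± 2.84, with 18.21%, 23.0% and 31.9% in the same order. Both were the highest pair in all 18 libraries, and together they held between 49.5% and 58.5%, or at most 55.1% without replicate 2 at 12 h. miR-191-5p was the higher of the pair in 16 libraries. The order was reversed at 0 h in replicate 4, where miR-181a-5p held 31.9% and miR-191-5p 23.2%, and narrowly at 6 h in replicate 4, with 26.7% and 26.5%.

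The next miRNAs were well below this pair. miR-16-5p, of the miR-15/16 family known to restrain the cell cycle and BCL2, held 6.59% ± 0.747. miR-10a-5p, encoded beside the Hox genes, held 5.40% ± 1.41, with libraries from 2.77% to 7.74%. miR-25-3p and miR-21a-5p, the latter widely raised in dividing and transformed cells, held 2.77% ± 0.372 and 2.71% ± 0.394. The ranges of miR-16-5p and miR-10a-5p overlapped, as did those of miR-25-3p and miR-21a-5p, and miR-16-5p was the higher in 14 of 18 libraries and miR-25-3p in 11 of 18. They were followed by miR-181b-5p (2.33%), miR-142-5p (2.30%), let-7f-5p (1.82%) and miR-181a-1-3p (1.76%). In the plot of shares, most of the 20 highest miRNAs formed narrow bands and miR-19b-3p, the lowest of them, did not.

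**Figure D1:**
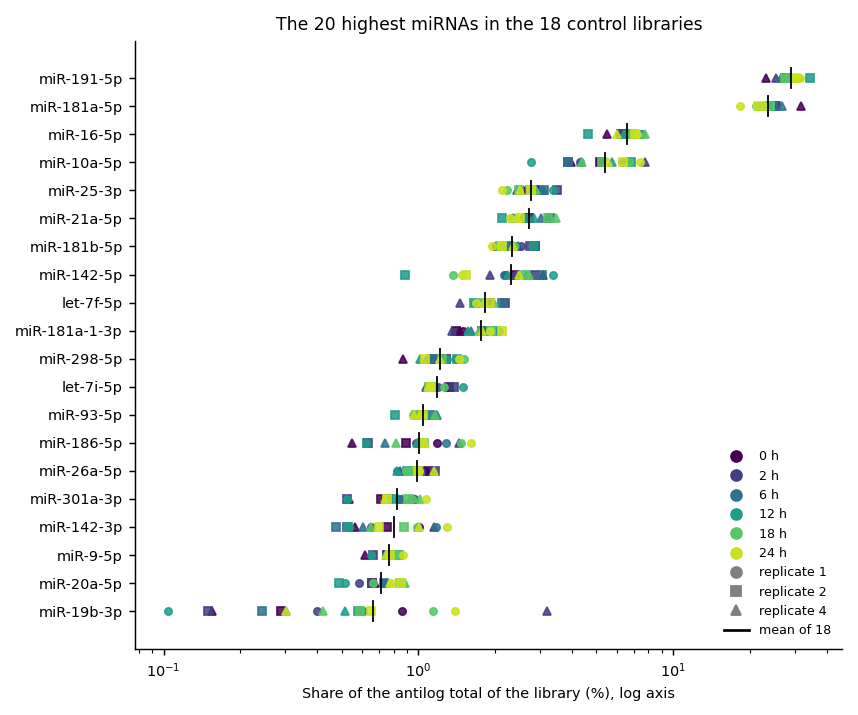
Share of the antilog total in percent (log axis) for the 20 highest miRNAs, with a point for each of the 18 control libraries coloured by time and shaped by replicate, and a bar at the mean. miR-191-5p and miR-181a-5p lie between 18.21% and 34.5%, apart from the rest, and miR-19b-3p spreads from 0.104% to 3.19%.

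The lower 10 of the 20 highest held between 0.661% and 1.22% each on average. It comprised miR-298-5p, let-7i-5p, miR-93-5p, miR-186-5p, miR-26a-5p, miR-301a-3p, miR-142-3p, miR-9-5p, miR-20a-5p and miR-19b-3p. The 20 miRNAs together held 87.3% on average. Beyond them the table was long and low, since 14 miRNAs had a mean share over 1% and 352 of the 469 had one under 0.01%. Between 19 and 27 miRNAs, with a median of 25, made up 90% of a library. The lowest of these counts belonged to replicate 2 at 12 h, and without it the lowest was 24. Each library counted between 16 and 20 of the overall 20 highest among its own 20 highest.

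Grouping by seed changed the order little at the top. Sequences were found for 391 of the 469 miRNAs, which held 95.6% of the total, and the other 78, miR-142-5p and miR-142-3p among them, were each kept as a family of 1. This gave 406 families, of which 41 had more than 1 member. The miR-191 family of 1 member held 29.0%, and the miR-181 family of 4 members 26.4% ± 2.93, of which miR-181a-5p made up 88.9%. The ranges of these families overlapped, at 23.2% to 34.5% (31.4% without replicate 2 at 12 h) and 20.7% to 34.6%.

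Among the other families the weight was spread unequally over the members. The miR-15/16 family of 5 held 7.42% ± 0.847, led by miR-16-5p with 88.8% of it, and the miR-10 family of 2 held 5.41%, of which miR-10a-5p made up 99.9%. In the let-7 family, known for repressing fetal and growth genes, let-7f-5p accounted for 45.0% of the 4.06% ± 0.370 held by the 6 members in the table. let-7i-5p, let-7g-5p and miR-98-5p followed at log2 levels of 13.98, 13.02 and 11.78. The family of miR-93-5p and miR-20a-5p, which shares its seed with miR-17-5p, held 2.196%, with 47.7% of it from miR-93-5p. The 10 highest families held 84.8% in all, and those not yet named were led by miR-25-3p (3.43%), miR-21a-5p (2.71%), miR-142-5p (2.30%) and miR-181a-1-3p (1.91%).

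Counting of near-identical sequences bears on several of these levels. Sequences were aligned at their first base, without gaps. Of the miRNAs in the table, 24 then had a RefSeq mature miRNA with at most 1 mismatch over the shared length. Among them were 5 of the 20 highest, and they held 12.6% of the total. Neighbours that differ by a missing base were not counted, so these values are minimums. miR-181a-5p and miR-181c-5p are such a pair, since the former without 1 G gives the latter. The level of miR-10b-5p was 6.06 against 16.12 of miR-10a-5p, and let-7c-5p was at 2.81 while let-7f-5p was at 14.60. miR-30e-5p, usually a well represented strand, was at 1.71 and the opposite arm miR-30e-3p at 11.03. Some neighbours were not in the table at all, namely let-7a-5p, 1 mismatch from let-7f-5p, miR-30a-5p, 1 from miR-30e-5p, and miR-27a-3p, 1 from miR-27b-3p. The shares of such families are thus those of the listed members only. How reads that match several miRNAs were assigned is not given in the sources used here, so levels within such groups are uncertain.

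The hairpins of the dominant miRNAs lie in different settings (GRCm38.p6 coordinates from RefSeq, transcripts from GENCODE vM21). The hairpin of miR-191 is at chr9:108568319-108568392 on the plus strand and overlaps an exon of the lincRNA 4833445I07Rik. miR-181a-5p is made from 2 hairpins, at chr1:137966455-137966541 over an exon of the lincRNA A430106G13Rik and at chr2:38852735-38852810 opposite the gene Nr6a1, both on the plus strand. The level of one cannot be told apart from that of the other. The 3p arm miR-181a-1-3p belongs to the chromosome 1 copy and was the tenth highest miRNA. The miR-25 hairpin at chr5:138165321-138165404 lies on the minus strand within Mcm7, a gene of the replicative helicase, and that of miR-21a at chr11:86584067-86584158, also minus, within Vmp1.

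Levels of neighbouring hairpins were compared next. Within 10000 bases and on the same strand, 80 of the 277 hairpins located fell into 30 clusters, and the log2 levels of the higher arms differed by a median of 3.39 within a cluster. Unrelated hairpins were not compared in this way. The smallest range was 0.10, between miR-871-3p and miR-470-5p, and miR-132-3p and miR-212-5p differed by 1.17. miR-191-5p stood at 18.58 and miR-425-5p, cut from the same locus, at 11.40. In the Mcm7 cluster miR-25-3p was at 15.19, miR-93-5p at 13.79 and miR-106b-5p at 10.87. The miR-17-92 cluster on chromosome 14, whose members promote B cell proliferation and survival, had miR-20a-5p at 13.23, miR-92a-3p at 12.60 and miR-18a-5p at 11.75, whereas miR-17-5p was at 6.98. The widest cluster held miR-182-5p at 12.27 and miR-183-5p at 1.45, a difference of 10.82 log2 units. Mature miRNAs made from several hairpins were counted in each of their clusters.

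Levels were next set beside lists of miRNAs by cell type, which were fixed with earlier results of these data known. All 9 of the list for blood and B cells were in the table, and they summed to between 54.5% and 62.8% of a library, mostly through miR-191-5p and miR-181a-5p. Both are the highest miRNAs of these libraries, so the sum follows from the choice of the list and does not test the labelled cell type. miR-155-5p, induced in activated lymphocytes, was at 10.77 ± 0.151 (log2, SD, n = 18) and miR-146a-5p at 8.94 ± 0.214. miR-342-3p was at 6.99, and miR-150-5p of mature lymphocytes was lowest of the list at 3.90 ± 0.448, near the median of all miRNAs of 3.97.

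Markers of other cell types were mostly not listed in the table. None of the 5 muscle, 8 embryonic stem cell and 1 liver miRNAs chosen was listed, and of 6 myeloid and erythroid miRNAs only miR-223-3p was, at 1.66 ± 0.564. Of the 7 epithelial miRNAs, 5 were listed, and they summed to at most 0.0184% in a library. The 2 of 5 stromal and endothelial miRNAs listed, miR-126a-3p at 5.86 and miR-143-3p at 1.09, summed to at most 0.00603%. The counts depend on the miRNAs chosen, since miR-208b-3p, from a muscle myosin gene, and miR-192-5p and miR-194-5p, known from liver and gut, were in the table outside the lists at 2.64, 10.84 and 6.30. They were named after their values were seen. The neural list was the exception, since miR-9-5p, best known from the brain, was at 13.35 ± 0.223 and held 0.770%, with miR-138-5p at 6.39. The share of miR-9-5p lay between 0.616% and 0.867% in the 18 libraries, and the other 2 neural miRNAs were not listed.

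Arm use was compared in the 150 pairs with both arms in the table. The 5p arm was higher on average in 91 pairs and the 3p arm in 59. The same arm was higher in all 18 libraries in 126 pairs, 80 of them with the 5p arm. The arms differed by a median of 3.36 log2 units, 44 pairs by more than 6 and 23 by less than 1.

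The hairpins with the highest sums were strongly one-sided with a few exceptions. miR-191-5p exceeded miR-191-3p by 10.31 log2 units, with libraries between 9.70 and 11.48, or up to 10.74 without replicate 2 at 12 h. miR-10a differed by 10.85, miR-16-5p by 9.85 from the 3p arm of its second hairpin and by 12.51 from that of its first, and miR-181b-5p by 12.31 from miR-181b-2-3p. let-7f-5p exceeded let-7f-1-3p by 10.32. The 3p arm led in miR-25, where the 5p minus 3p difference was -9.02. In contrast, both arms of miR-181a-1, miR-142 and miR-21a were abundant, since the 5p arms were higher by 3.74, 1.52 and 4.84. The 5p arms of the miR-16, miR-181a, miR-181b and let-7f pairs can come from more than 1 hairpin, so those differences are not ratios within 1 hairpin.

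**Figure D2:**
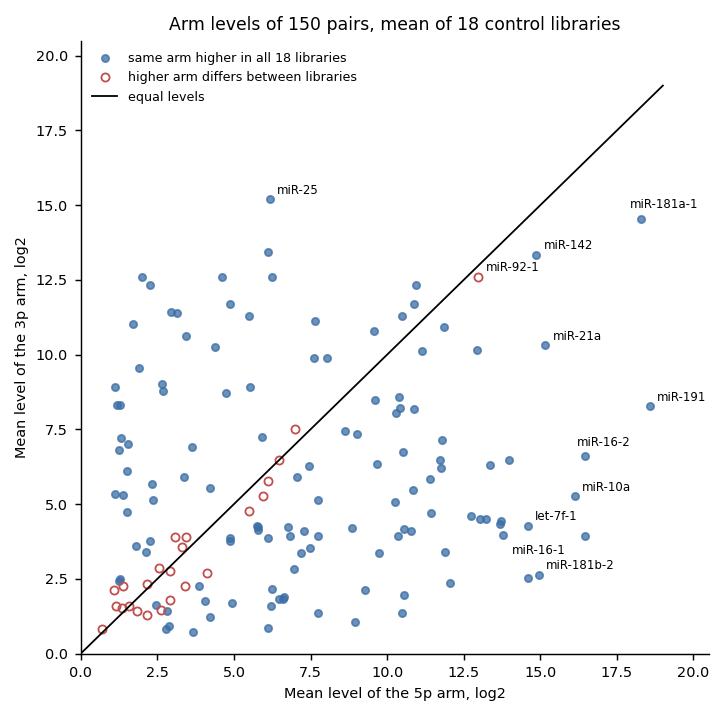
Mean log2 level of the 5p arm (x) against that of the 3p arm (y) over the 18 control libraries for 150 pairs. Filled points are the 126 pairs with the same higher arm in every library, open points the rest, and the line marks equal levels. The named hairpins are the 10 with the highest sums and miR-92-1, which lies close to the line.

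Among the 68 pairs with both arms above the median level, the most even were miR-7a (6.49 and 6.49), miR-339 (6.12 and 5.78), miR-92a-1-5p with miR-92a-3p (12.97 and 12.60), miR-17 (6.98 and 7.52) and miR-362 (5.93 and 5.26). In each of these 5 the higher arm depended on the library, and miR-92a-1-5p was the higher in 15 of 18. The pair of miR-92a is the only one of the 5 with both arms at a high level, and miR-92a-3p can also come from a second hairpin. The same holds for miR-7a-5p. miR-7a-5p and miR-17-5p each have a neighbour with 1 mismatch, so their levels are uncertain too.

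The higher arms shared a sequence feature. Argonaute proteins are known to favour U at the first base of the loaded strand. Of the 64 pairs with both sequences and arms more than 3 log2 units apart, the higher arm began with U in 41 (64.1%) and the lower arm in 5 (7.81%). These are counts of pairs and not of separate sequences. An arm made from more than 1 hairpin was counted in each of its pairs, as were miR-16-5p and let-7f-5p, which begin with U. U at base 1 occurred in 158 of all 391 sequences (40.4%). The highest miRNAs were not typical in this respect, since miR-191-5p begins with C and miR-181a-5p with A, and miRNAs beginning with U held 27.7% of the total with a sequence. By length, miRNAs of 23 bases, 75 in number, held 66.2% of the total and the 219 of 22 bases held 25.2%. miR-191-5p and miR-181a-5p are both of 23 bases and alone held 52.5%, so the lead of this length is mostly theirs.

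The course under 4-OHT was then examined, which asks what 4-OHT does without Ikaros. Cells of one culture batch were harvested together, after different times with the drug. The samples of 2 to 24 h share their culture batches. The labels do not give the sequencing batch. In the study's drawing of the design, the control samples of 2 to 18 h stand in the second sequencing batch, and those of 24 h in the first, with 2 of them repeated in the second, so a change between 18 h and 24 h and a change of batch cannot be told apart beyond the correction by the authors.

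Composition measures moved little. The share of the 10 highest miRNAs of a library had a mean of 78.4% ± 0.931 (SD, n = 3) before the drug. It was 78.4% ± 0.817 after 2 h, 78.4% ± 0.344 after 6 h and 79.7% ± 2.69 after 12 h. The last values were 77.6% ± 0.144 for 18 h and 77.3% ± 1.27 for 24 h. A permutation test of the variance between the times of 2 to 24 h, shuffled within culture batch (100000 resamples), gave p = 0.163 (adjusted 0.245 over 3 measures). For the share of the highest miRNA the permutation p was 0.116 (adjusted 0.245), with time means between 27.9% and 31.3%, and for the number of miRNAs that hold 90% it was 0.933 (adjusted 0.933), with means between 23.7 and 25.3. Without replicate 2 at 12 h the adjusted permutation p values were 0.620, 0.0827 and 0.717, so none of the measures passed 0.05 in either case.

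The 10 highest families are drawn by library. None of them passed the test over 2 to 24 h (limma F-test, adjusted p between 0.677 and 0.989). The miR-181 family had means of 27.1%, 27.1%, 26.3%, 25.3% and 23.5% from 2 h to 24 h, and 29.2% at 0 h, but the libraries overlapped between neighbouring times and the adjusted p was 0.863 on the log2 scale. miR-191-5p had means of 27.9%, 28.3%, 31.3%, 28.6% and 30.6%. Of all 406 families, 1 passed (0.246%), namely miR-3058-3p, a family of 1 member, while 44 had an unadjusted p under 0.05. Without replicate 2 at 12 h none passed.

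**Figure D3:**
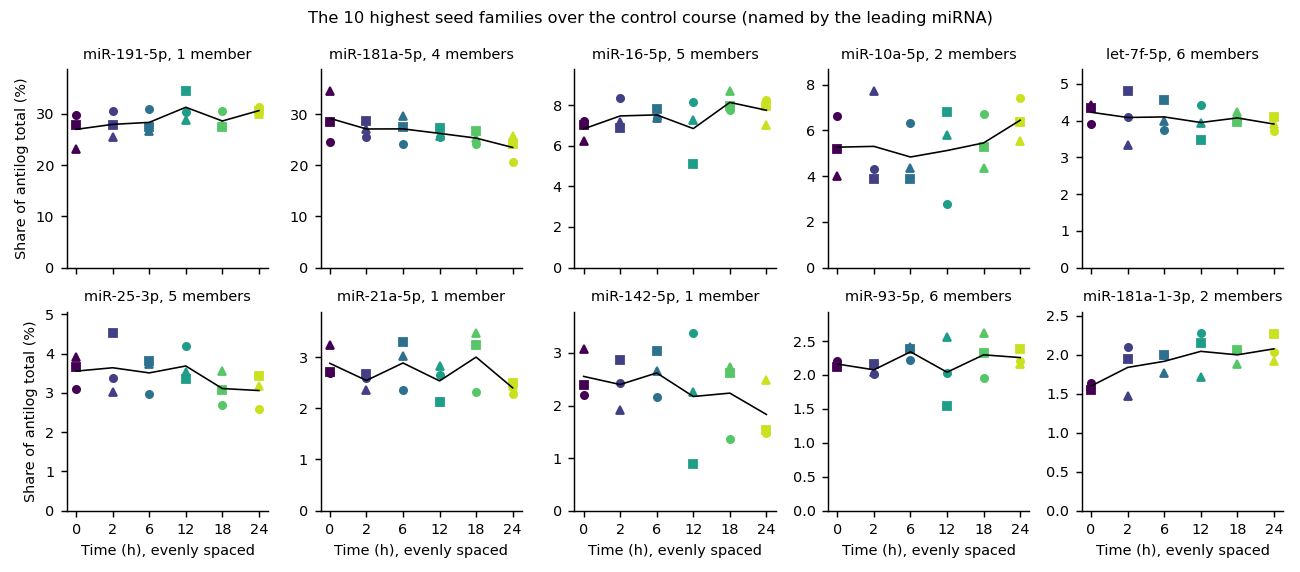
Share of the antilog total in percent for the 10 highest seed families, named by the leading miRNA, at 0, 2, 6, 12, 18 and 24 h (evenly spaced). Points are libraries, shaped by replicate, and lines join the means of 3. The miR-181 mean lies at 29.2% at 0 h and 23.5% at 24 h with overlapping neighbouring times, and the square at 12 h is replicate 2, which stood apart.

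At the level of single miRNAs few changes passed. Over the 5 times of 2 to 24 h, 2 of the 469 miRNAs (0.426%) passed the limma F-test with Benjamini-Hochberg adjustment, namely miR-6240 and miR-3058-3p, and 47 had an unadjusted p under 0.05. The same 2 miRNAs passed over all times from 0 h (0.426%), with 44 at an unadjusted p under 0.05. Over 2 to 18 h, within 1 sequencing batch by that drawing, 4 passed (0.853%) and 46 had an unadjusted p under 0.05. The additional ones were miR-1936 and miR-92a-2-5p. All 4 are low, with mean ranks between 324 and 462 of 469.

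Each of the 4 departed at 12 h. At this time the log2 level of miR-6240 was 1.08, 0.52 and 1.096 in replicates 1, 2 and 4, below every other control library, which lay between 1.83 and 3.73. The values at 2 h were 2.87, 2.64 and 3.73, and the adjusted p over 2 to 24 h was 6.59e-05. miR-3058-3p was at 1.47, 1.55 and 1.86 at 12 h and between 0.47 and 1.27 in the other control libraries (adjusted p = 0.0146). Both levels at 12 h were thus separate from the rest. In the Ikaros line at 12 h miR-6240 was at 1.44, 2.16 and 2.17, and miR-3058-3p between 0.51 and 1.203.

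The other 2 departures at 12 h were weaker. miR-1936 was at 1.62, 0.22 and 0.22 at 12 h against 1.42 to 2.50 in the rest (adjusted p over 2 to 18 h = 0.0433), and miR-92a-2-5p at 1.65, 0.61 and 1.52 against 1.70 to 2.67 (adjusted p = 0.0446). The lowest control value of the table is 0.20, so several of these values lie at its floor. Without replicate 2 at 12 h only miR-6240 passed, with an adjusted p of 0.00249 over 2 to 24 h, and miR-3058-3p had 0.0987. With culture batch as a replicate block, which pairs the libraries, 2 miRNAs passed over 2 to 18 h in place of 4, since miR-1936 had an adjusted p of 0.0577 and miR-92a-2-5p 0.0899. With the spread estimated from the 18 control samples alone, 1 miRNA passed each of these tests.

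**Figure D4:**
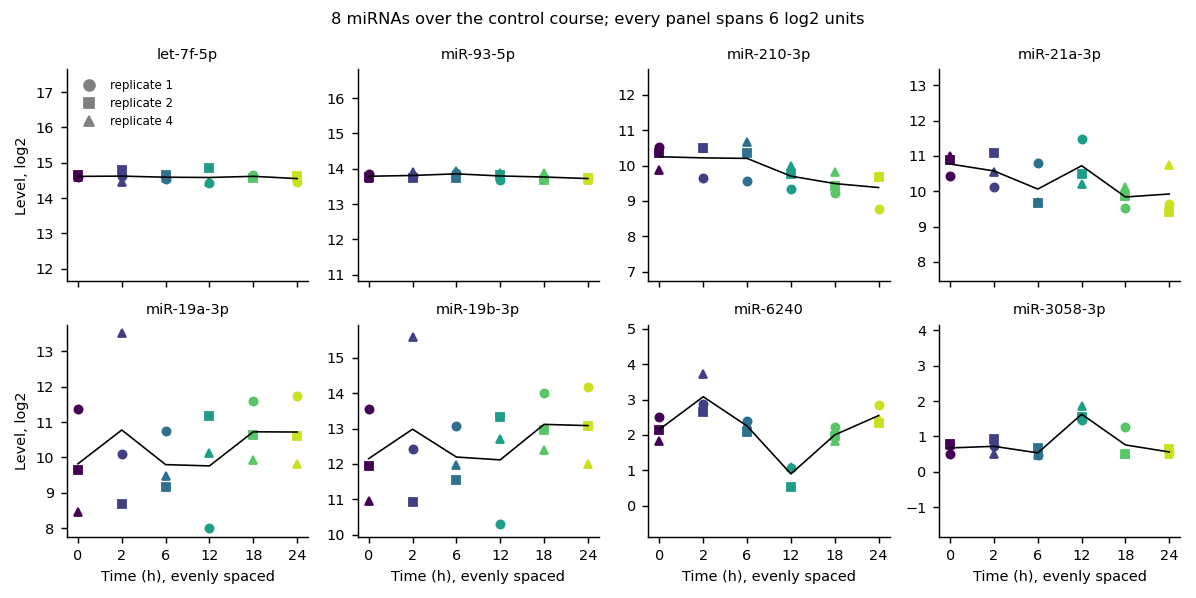
Log2 level of 8 miRNAs at 0, 2, 6, 12, 18 and 24 h (evenly spaced) in the control libraries. Points are libraries shaped by replicate, lines join the means of 3, and every panel spans 6 log2 units. let-7f-5p and miR-93-5p are flat, miR-19a-3p and miR-19b-3p spread within times, and miR-6240 and miR-3058-3p depart at 12 h.

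No miRNA passed in a comparison of 2 times by limma. From 0 h to 2 h 0 of 469 passed (0%, 24 at an unadjusted p under 0.05), from 0 h to 24 h 0 (0%, 16 unadjusted), from 2 h to 18 h 0 (0%, 32 unadjusted) and from 2 h to 24 h 0 (0%, 33 unadjusted). The nearest was miR-22-3p from 0 h to 24 h, with an estimate of -0.57 ± 0.13 (SE) log2 units. Its untreated libraries were at 12.50, 12.66 and 12.90 and those of 24 h at 12.04, 12.05 and 12.24, without overlap, and the adjusted p was 0.0616. It passed when replicate 1 of 0 h was left out and when only miRNAs above the median level were tested. miR-200b-5p from 2 h to 18 h differed by 1.36 ± 0.32 (adjusted p = 0.0931). Its 2 h libraries were at 1.35, 2.41 and 0.61 and its 18 h libraries at 3.03, 2.46 and 2.95, of which the 2.41 of replicate 2 lay close to the later values, and it passed without that library.

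The size of change that these comparisons could miss is given by their intervals. For the difference of 24 h minus 2 h, the 95% interval lay within 1 log2 unit on either side of 0 in 333 of the 469 miRNAs (71.0%), and in 328 (69.9%) for 18 h minus 2 h. Among the 20 highest miRNAs this held for 15 (75.0%) in both. The median of the absolute differences from 2 h to 24 h was 0.21 over all miRNAs and 0.15 over the 20 highest. For miR-191-5p the difference was 0.06, with an interval of -0.39 to 0.52, and for miR-181a-5p -0.28, with -0.67 to 0.11. For miR-10a-5p, miR-142-5p, miR-186-5p and miR-142-3p the intervals reached past 1 log2 unit, and for miR-19b-3p the interval ran from -2.49 to 2.69.

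Of the 100 highest miRNAs, those with the smallest range of time means over 2 to 24 h were let-7f-5p (0.07 log2 units), miR-9-5p (0.10), miR-139-5p (0.10), miR-130b-3p (0.13) and miR-93-5p (0.13). The largest ranges were those of miR-221-5p (1.44), miR-19a-3p (1.02), miR-19b-3p (1.00), miR-21a-3p (0.88) and miR-210-3p (0.84). miR-210-3p is known as a target of the hypoxia response. Its means were 10.22, 10.20, 9.70, 9.49 and 9.38 from 2 h to 24 h, with a difference of -0.84 ± 0.34 (SE) from 2 h to 24 h and an adjusted p of 0.519. None of these 10 passed the F-test.

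The lists are given by their counts, beside 2 of 469 (0.426%) over all miRNAs, a share from which a count of 0 in lists this short cannot be told apart. Of the 9 miRNAs of blood and B cells none passed over 2 to 24 h and the lowest adjusted p was 0.633. Their differences from 2 h to 24 h ranged from -0.48 to 0.74, with a median of 0.06 against 0.04 over all miRNAs. In that comparison miR-150-5p (0.74 ± 0.33, SE) and miR-342-3p (0.37 ± 0.16) had an unadjusted p under 0.05, with limma adjusted p values of 0.586 and 0.582. None of the 6 guides of the miR-17-92 cluster passed (lowest adjusted p = 0.657), with differences from -0.59 to 0.34 and a median of 0.02. Of 9 miRNAs known to respond to hypoxia, DNA damage or immune signals, none passed (lowest adjusted p = 0.470), with differences from -0.84 to 0.21 and a median of -0.09, and miR-210-3p alone had an unadjusted p under 0.05 from 2 h to 24 h. miR-155-5p and miR-34a-5p, which answer to lymphocyte activation and p53, differed by 0.13 ± 0.18 and -0.09 ± 0.17. None of the 10 listed miRNAs of other cell types passed. From 2 h to 24 h 1 of them, miR-138-5p, had an unadjusted p under 0.05 with a difference of 0.43, and the differences had medians of 0.44 for the single myeloid and erythroid, 0.24 for the neural, -0.0011 for the epithelial and 0.17 for the stromal and endothelial miRNAs.

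Arm ratios were tested in the same way. Of 150 pairs 4 passed the F-test over 2 to 24 h (2.67%), with 17 at an unadjusted p under 0.05. They were miR-92a-2-5p with miR-92a-3p, miR-467c-5p with miR-467c-3p, miR-16-5p with miR-16-1-3p (adjusted p = 0.0289 for each) and miR-339 (adjusted p = 0.0380). The 5p minus 3p difference of miR-16 was 12.33, 12.65 and 12.77 at 2 h. It was 12.14, 11.37 and 11.86 at 12 h, and 13.05, 12.81 and 12.80 at 24 h. That of miR-467c lay between 5.75 and 6.43 at 12 h, below every other control library, which lay between 6.57 and 8.64. The 24 h differences of miR-339 were -0.33, 0.15 and -0.97, against 0.71, 0.53 and 1.08 at 18 h. For miR-92a-2-5p the values lay between -12.52 and -10.99 at 12 h and between -10.17 and -9.66 at 18 h. The lower arms of these pairs had mean levels of 2.00 for miR-92a-2-5p, 2.13 for miR-467c and 3.93 for miR-16. None of the 4 passed without replicate 2 at 12 h, and none with only the control samples in the fit.

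The spread between replicates within times was wide for a few abundant miRNAs. The median SD within times was 0.35 over all miRNAs and 0.23 over the 100 highest, but 1.44 for miR-19b-3p and 1.49 for its relative miR-19a-3p, which share a seed and differ by 1 base. miR-19b-3p ranged from 10.30 at 12 h in replicate 1 to 15.59 at 2 h in replicate 4, a ratio of 38.9, and miR-19a-3p from 7.99 to 13.53 in the same libraries, a ratio of 46.6. The difference between the 2 remained between 2.05 and 2.57 in every library. Their deviations from the time means moved together (Pearson r = 0.996, Spearman rho = 0.992, n = 18, permutation p = 1e-05 for each, the smallest that 100000 resamples can give), and r was 0.993 without the 2 libraries farthest from the median. The pair was looked at because of its spread. The shuffles treated all 18 deviations as separate, although those within a time cancel out, so these permutation p values are not exact. Reads that fit both sequences can be shared between them.

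Other miRNAs deviated with miR-19b-3p in the same libraries. Among those above a log2 level of 8, miR-10a-5p, miR-322-5p, miR-186-5p and miR-301a-3p had r between 0.910 and 0.921 over the 18 libraries, and miR-191-3p, let-7g-5p and let-7d-5p had r of -0.881, -0.876 and -0.846. These values are descriptions, without a test. The first principal component of the deviations held 30.3% of their variance, with replicate 2 at 12 h and replicate 4 at 2 h at the high end and replicate 1 at 12 h and replicate 2 at 2 h at the low end. Across the 390 other miRNAs with a sequence, the r with miR-19b-3p was related to the length of the mature miRNA (Pearson r = 0.477 across miRNAs, which share libraries and are not independent). For GC content the Pearson r was -0.134. The authors had already corrected the values for GC content, so this r cannot show the relation before that correction. The median r was -0.385 for the 61 miRNAs of 21 bases, -0.218 for 219 of 22, 0.133 for 74 of 23, 0.301 for 21 of 24, 0.586 for 8 of 25 and 0.673 for 6 of 26. The part of length in this spread was not tested.

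The control course was finally set against the Ikaros line, to show which changes from 2 h to 24 h were particular to one of them. By limma, the 24 h minus 2 h change of 67 of the 469 miRNAs differed between the lines (14.3%), with 138 at an unadjusted p under 0.05. Of the 67, 42 had the higher change in the control line. The median absolute change was 0.21 in the control line and 0.44 in the Ikaros line, and 4 and 72 miRNAs moved by more than 1 log2 unit. At the level of families 60 of 406 differed (14.8%), and of arm ratios 10 of 150 (6.67%). In the same drawing the 24 h samples of both lines stand in the first sequencing batch, 2 control samples also in the second, whereas at 2 h the control samples are in the second and the Ikaros samples in the first. The control change thus crosses sequencing batches and the Ikaros change does not, and beyond the correction by the authors line and batch cannot be told apart in this contrast.

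Of the 5 miRNAs with the lowest p values, miR-92a-1-5p, miR-26a-5p and miR-128-2-5p changed by at most 0.10 in the control line, and miR-22-3p and miR-151-3p by more. In the control line miR-92a-1-5p was at 13.10, 12.75 and 13.05 at first and at 13.16, 12.99 and 13.03 after 24 h, and it fell in the Ikaros line from 12.09, 12.22 and 12.80 to 9.77, 10.02 and 9.51. The change was 0.10 ± 0.17 (SE) and -2.60 ± 0.17, and the adjusted p of the difference was 2.97e-09. miR-26a-5p was at 13.78, 13.89 and 13.68 and then 13.71, 13.68 and 13.94 in the control line, a change of -0.0024 ± 0.131 against 1.21 ± 0.13 (adjusted p of the difference = 3.07e-05). miR-22-3p, a miRNA of blood cell differentiation, changed by -0.39 ± 0.13 and 1.25 ± 0.13, with an adjusted p of the difference of 1.66e-07. The control libraries of 2 h and 24 h did not overlap, at 12.42 to 12.56 and 12.04 to 12.24, although this change alone did not pass (adjusted p = 0.324). For miR-151-3p the changes were -0.69 ± 0.31 and 2.39 ± 0.31, and its control libraries did not overlap either, at 3.06 to 3.74 and then 2.27 to 2.89 (adjusted p within the line = 0.586). Those of miR-128-2-5p were 0.10 ± 0.25 and -2.20 ± 0.25.

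**Figure D5:**
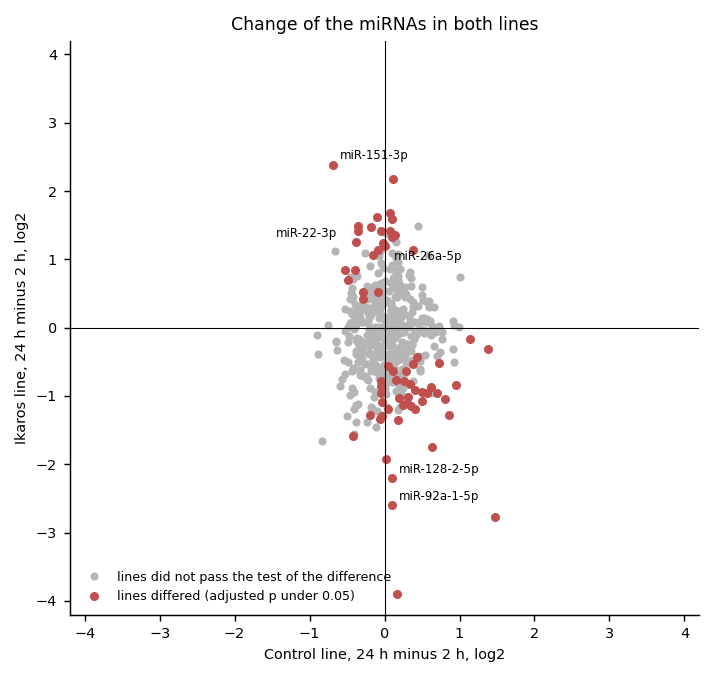
Change from 2 h to 24 h in log2 units for 469 miRNAs, control line (x) against Ikaros line (y), on equal axes. Coloured points are the 67 miRNAs whose change differed between the lines, and the 5 with the lowest p are named. The cloud is narrow along the control axis, with 4 miRNAs past 1 log2 unit, and wide along the Ikaros axis, with 72.

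Among families the 5 lowest p values were those of miR-92a-1-5p, miR-22-3p, miR-151-3p, miR-3091-3p and miR-339-3p. miR-26a-5p was joined there with miR-26b-5p, which shares its seed. miR-3091-3p was one of the 4 that moved past 1 log2 unit in the control line, from 3.72, 3.05 and 3.37 to 5.34, 4.41 and 4.82, a change of 1.48 ± 0.46 that did not pass alone (adjusted p = 0.250), against -2.77 ± 0.46 in the Ikaros line. For arm ratios the lowest p values were those of both 5p arms of miR-128 with miR-128-3p, miR-210, miR-1198 and miR-92a-1-5p with miR-92a-3p. The control 5p minus 3p differences of miR-210 were -2.35, -1.54 and -2.60 after 2 h of 4-OHT, then -1.39, -1.48 and -0.59 after 24 h. Within the control line the lowest adjusted p of the 5 arm ratios from 2 h to 24 h was 0.502.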

How the data were processed

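Small RNA libraries of 18 control and 18 Ikaros samples of the B3 line were read as deposited log2 values. Per their methods, the authors aligned reads to miRBase with Novoalign, counted them with multiBamCov (the submitters' notes name Novoalign, bedtools and mm10), removed miRNAs under 1 CPM by the NOISeq filter, applied cqn for GC content, normalised with TMM, corrected the 2 sequencing batches with ComBat and averaged technical replicates. An average of 2 libraries varies less than 1 library, and shares after a GC correction are not shares of reads. The methods state a range of reads per sample, but the table holds no counts, so the depth behind each value is unknown from it and no counting interval was computed. All columns were matched to samples by line, time and replicate number (1, 2 and 4).

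Members and lists were chosen with earlier results of these data known. limma 3.58.1 in R 4.3.3 was fitted to all 36 samples in 12 groups (lmFit, eBayes with trend), with Benjamini-Hochberg adjustment over all features and a threshold of 0.05. Families summed antilogs of miRNAs sharing bases 2 to 8. Arm ratios were 5p minus 3p, with the trend taken over the mean level of the pair. A family is named by its highest member. Named features are the 20 highest miRNAs, 10 highest families, 10 highest hairpins, 5 most even pairs of arms in the upper 50% of levels, at most 10 features per control test past the threshold, the 5 smallest and 5 largest ranges of time means among the 100 highest, the 5 lowest p between the lines per level and all list members. Features named outside this rule were chosen after their values were seen. P-values measure the spread between separate cultures of the B3 line. In the limma fits to all 36 samples this spread was pooled over the control and Ikaros lines. The script was tested on simulated data with known changes.

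The pairing comes from the labels, where a replicate number marks a culture batch from 2 h on. Same-numbered control libraries correlated in their deviations with a median r of 0.049, and others with -0.023. The latter is not a separate comparison, since the deviations within a time cancel out and it follows from the former. Alternatives were the control samples alone, other scalings, a filter on level, no trend, the replicate block, leaving out replicates or libraries, seeds of bases 2 to 7 and single hairpins. Leaving replicate 2 at 12 h out of the tests of families, arms and composition was added after seeing the data. Python 3.11.15 and matplotlib 3.10.9 were used for the rest.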

Additional observations from a re-analysis of the deposited data

Results flagged for a closer look

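The change from 2 h to 24 h differed between the control line and the Ikaros line, by limma's test of the difference itself, for 67 miRNAs, 60 families and 10 arm ratios. For the lowest p values the control change minus the Ikaros change, in log2 units, was 2.70 for miR-92a-1-5p (2.70 as a family of 1), -1.64 for miR-22-3p (-1.64 as a family), -3.08 for miR-151-3p (-3.08 as a family), -1.21 for miR-26a-5p and 2.30 for miR-128-2-5p. Among families it was 4.24 for miR-3091-3p and 2.39 for miR-339-3p. Among arm ratios it was 1.89 and 3.18 for miR-128-3p with its 5p arms of hairpin 1 and 2, 3.25 for miR-210, -2.43 for miR-1198 and 2.55 for miR-92a-1-5p with miR-92a-3p.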

How the results depend on the processing

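With only the control samples in the fit, the counts of miRNAs over 0 to 24 h, 2 to 24 h and 2 to 18 h were 1, 1 and 1, and those of families and arm ratios 0 and 0. Over 2 to 18 h, 2 miRNAs passed with sample medians subtracted, 2 with quantile normalization and 2 with the replicate block, which pairs libraries by culture. The block changed no other control-line count, and gave 75 miRNAs, 64 families and 12 arm ratios between the lines. For the spans that include 0 h the block was the replicate number, which joins different culture batches there. Among features above the median level 0, 0 and 0 miRNAs passed over those 3 spans, 1 from 0 h to 24 h (miR-22-3p), 0 families and 2 arm ratios. Quantile normalization and pairs of single hairpins left 0 arm ratios over time, and the latter 6 between the lines. Without 1 replicate number the counts were 0 to 3 over 0 to 24 h, 1 to 3 over 2 to 24 h, 1 to 2 over 2 to 18 h, 0 to 1 from 2 h to 18 h, 0 to 1 families and 0 arm ratios over time, and 19 to 31 miRNAs, 16 to 29 families and 5 to 7 arm ratios between the lines. The adjusted p for the share of the 10 highest miRNAs then ranged from 0.244 to 0.800. Without 1 control library the miRNA counts were 1 to 3, 1 to 5 and 1 to 5 for the F-tests, 0 to 1 from 0 h to 24 h, 0 to 2 from 2 h to 18 h, 0 to 1 from 2 h to 24 h and 43 to 80 between the lines. The 2 from 2 h to 18 h were miR-200b-5p and miR-6240, without replicate 2 at 2 h, and the 1 from 2 h to 24 h was miR-200b-5p. The 43 between the lines came without replicate 4 at 24 h and the 5 over 2 to 24 h without replicate 1 at 12 h. Without replicate 2 at 12 h, 0 families and 0 arm ratios passed over time, and 68 families and 10 arm ratios between the lines. Over 0 to 24 h 1 miRNA passed without that library, replicates 1 or 4 at 6 h or replicates 1 or 4 at 24 h. Over 2 to 18 h 2 passed without any 18 h library, replicates 1 or 4 at 0 h or 2 h, replicate 4 at 6 h or replicate 2 at 24 h. miR-6240 kept its call over 2 to 24 h in all 26 alternatives and miR-3058-3p in 20 of 26. Quantile normalization makes all distributions equal, so composition could not be tested under it, and it moved the mean share of miR-16-5p to 8.98%, its family to 9.78% and its arm differences to 10.20 and 13.02. Apart from these, the untested shares and arm differences moved by less than 1 SD. Scalings by median do not change arm ratios. The causes were not tested.

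With 3 libraries per time, 333 of 469 intervals for 24 h minus 2 h stayed within 1 log2 unit. Levels near the floor of the table, where the 4 miRNAs that passed over time lie, carry the least information. The 0 h samples differ in culture batch and, by the study's design drawing, 24 h in sequencing batch.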
